A study of Homo sapiens with 2 samples.

Results

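The TRIM family of ubiquitin ligases was followed in Hep3B, an established line of human liver carcinoma, after exposure to GLE, an extract of the seaside plant Glehnia littoralis, or to the solvent dimethyl sulfoxide (DMSO). Members were the symbols of TRIM followed by a number and an optional letter, after removal of pseudogenes and antisense genes, which left 73 of the 43424 symbols in the count tables. There was 1 GLE library and 1 DMSO library, and the library titles alone tell them apart, since the other labels give the same wild-type genotype and the same treatment entry for both. All cells were cultured in the same serum-supplemented medium, and 500 ng of total RNA entered each 3′-end messenger RNA library. For the cells that were sequenced, neither dose nor exposure time is given in the sources used here. With 1 library per condition, no difference below has a replicate check and no test between conditions was possible.

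TRIM proteins are built from a RING finger that recruits a ubiquitin-loaded E2 enzyme, 1 or more B-box zinc fingers and a coiled coil, followed by a C-terminal domain that differs between classes and usually picks the substrate. Members with a PRY-SPRY domain include sensors and effectors of antiviral defence, and many TRIM genes can be induced by interferon. Other members act in the nucleus as transcriptional co-regulators, on microtubules, or as RNA-binding repressors. In liver cancer, members are studied as ligases that set the stability of signalling proteins.

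The GLE library held 3636351 counts and the DMSO library 5618328. CPM values below are scaled to the effective library size, and 3 counts, taken as the detection floor, corresponded to 0.848 CPM in the GLE library and 0.519 CPM in the DMSO library. CPM is the count of a gene per 1000000 counts of its library, and levels of different genes are not compared. All 8 hepatocyte and hepatoma markers looked up were counted in both libraries, among them albumin (ALB) at 2708 CPM in the GLE library and 4325 CPM in the DMSO library. Of these markers 7 had an interval below 1, beside 30.1% of all measured genes, and HNF4A, APOB and FGB had ratios of 0.372, 0.383 and 0.448. SERPINA1 went the other way, at 1.45 (1.31 to 1.62). The markers had more counts than the median gene and so narrower intervals, and the 30.1% is not matched for depth. The median log2 ratio of the 8 markers was -0.61, and its part in the TRIM values below was not tested. Among leukocyte markers, CD68 had 96 counts in the GLE library and 117 in the DMSO library, CD14 had 9 and 37, PTPRC had 3 and 1, and CD3E had 0 in both. The 5 muscle markers summed to 3.39 CPM in the GLE library and 5.37 CPM in the DMSO library, with MYH7 and DES at 0.

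A count was present for 44 members in the GLE library and for 45 in the DMSO library. At least 30 counts over both libraries, the minimum for a ratio, were reached by 31 members, of which 25 had 100 or more. Another 17 members had 1 to 29 counts, and 25 had none. Ratios are GLE over DMSO, with a 95% counting interval that treats reads as independent and covers counting error only.

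Of the 31 measured members, 3 were higher in the GLE library by 2-fold or more, TRIM36, TRIM23 and TRIM11, and 6 were lower by 2-fold or more, TRIM31, TRIM54, TRIM32, TRIM65, TRIM14 and TRIM8. Among all 11068 measured genes, 9.54% were higher by that much and 10.5% lower, against 9.68% and 19.4% of the measured members. The share of higher members was near the background, and the share of lower members was above it on 6 genes. Scaling by total counts gave 2 higher and 7 lower members in place of 3 and 6, as TRIM11 then had a ratio of 1.93 and TRIM47 of 0.493. Under that scaling 8.26% of all genes were higher and 12.2% lower, against 6.45% and 22.6% of the measured members. With a trend on transcript GC content removed, 5 (16.1%) were lower, with TRIM8 at 0.526, beside 9.61% of all genes. In RNA from whole cultures, fewer cells that express a gene and less RNA per cell cannot be told apart.

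**Figure D1:**
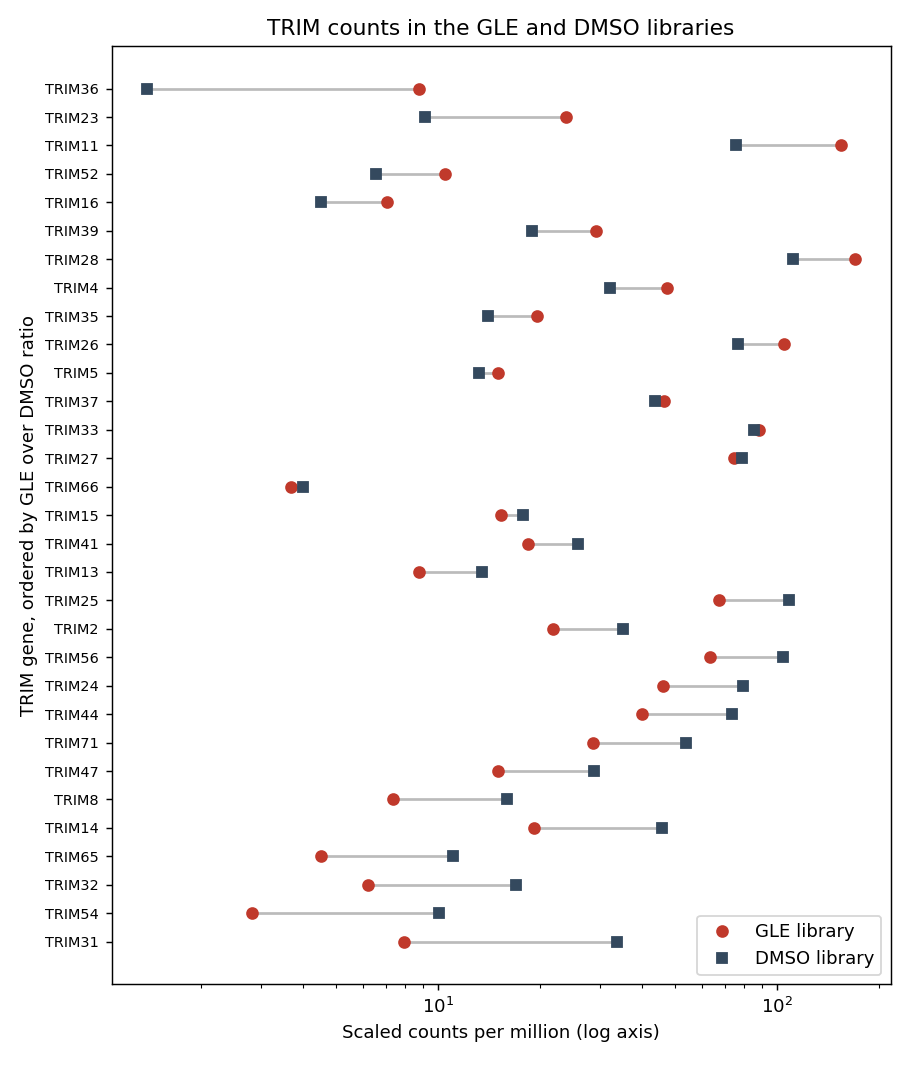
Scaled CPM of the 31 measured TRIM genes in the GLE library (red circles) and the DMSO library (dark squares) on a log axis, ordered by ratio with the highest at the top. TRIM36 at the top had 8.77 CPM in the GLE library and 1.38 CPM in the DMSO library, and TRIM31 at the bottom had 7.92 and 33.6 CPM in that order.

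Reference sequence upstream of the start site is shown for the members past 2-fold with at least 100 counts for which the RefSeq promoter table (GRCh38.p14) has an entry. These were TRIM31 (chr6:30113091-30113340, minus strand), TRIM32 (chr9:116687055-116687304, plus strand), TRIM14 (chr9:98119223-98119472, minus strand) and TRIM23 (chr5:65624334-65624583, minus strand). Each run holds the 250 bases before the first start site listed, 5′ to 3′ on the gene's strand, and capitals mark matches to the motifs searched. They are shown because these genes lie at both ends of the family and their upstream regions differ in base composition.
TRIM31: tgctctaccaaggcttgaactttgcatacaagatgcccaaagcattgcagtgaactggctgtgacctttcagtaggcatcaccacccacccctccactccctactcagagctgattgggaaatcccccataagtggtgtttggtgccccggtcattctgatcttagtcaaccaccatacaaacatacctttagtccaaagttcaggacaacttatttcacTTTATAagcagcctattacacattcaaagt
TRIM32: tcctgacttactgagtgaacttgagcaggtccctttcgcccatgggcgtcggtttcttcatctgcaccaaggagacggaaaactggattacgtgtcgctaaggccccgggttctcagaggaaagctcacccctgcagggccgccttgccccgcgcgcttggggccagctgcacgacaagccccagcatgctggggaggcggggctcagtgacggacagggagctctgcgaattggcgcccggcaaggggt
TRIM14: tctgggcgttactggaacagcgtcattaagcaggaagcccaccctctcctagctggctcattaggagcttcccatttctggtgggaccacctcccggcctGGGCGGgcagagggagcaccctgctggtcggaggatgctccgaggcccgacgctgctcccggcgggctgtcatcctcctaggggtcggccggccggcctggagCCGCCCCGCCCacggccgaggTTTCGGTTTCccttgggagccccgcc
TRIM23: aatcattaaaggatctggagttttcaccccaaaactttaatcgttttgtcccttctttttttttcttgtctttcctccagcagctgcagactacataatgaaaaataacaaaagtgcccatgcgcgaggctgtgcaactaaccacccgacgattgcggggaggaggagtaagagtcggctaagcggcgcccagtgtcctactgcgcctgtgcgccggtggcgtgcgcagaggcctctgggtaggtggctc
The TRIM31 sequence was 45.6% G and C with 1 CpG, and its capitals mark a TATA box (TATAAA, read on the other strand). The TRIM14 sequence was 68.8% G and C with 19 CpGs, and its capitals mark 3 GC boxes (GGGCGG), of which a pair overlaps on the other strand, and 1 interferon-stimulated response element. TRIM32 had 17 CpGs and TRIM23 had 14, and neither held letters of any motif searched.

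The letters TATAAA were found on either strand in 1 of the 23 measured members with a promoter entry, TRIM31, in 11.1% of all 27305 promoters of the same length and in 5.02% of the 8923 of measured genes. GC boxes were found in 13 of the 23, against 42.3% of all promoters and 68.2% of those of measured genes. The heat shock element GAANNTTC was found for TRIM65 alone and the ATF4 composite element TGATGNAA for TRIM2 alone, against 5.85% and 3.19% of all promoters and 3.97% and 1.3% of those of measured genes. TTCNNNGAA, the gamma-activated site, was found for TRIM15 and TRIM16 (6.78% of all promoters and 5.56% of those of measured genes), and the E-box CACGTG for TRIM25 and TRIM66 (6.49% and 9.29%). A match is a description of letters in this window.

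The interferon-stimulated response element, searched as GAAA, any 2 bases and GAAA again, is bound by interferon regulatory factors and was found for 6 of the 23 members (26.1%), against 3.07% of all promoters and 2.07% of those of measured genes. The matches are shown because the element is the textbook link between this family and interferon. Each run holds up to 30 bases on the gene's strand, with the match in capitals.
TRIM14: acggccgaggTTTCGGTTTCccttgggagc
TRIM44: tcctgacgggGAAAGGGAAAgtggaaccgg
TRIM2: aataaatagaGAAAAGGAAAtaagccgaag
TRIM5: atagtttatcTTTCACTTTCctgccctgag
TRIM26: tcccgcctgaTTTCAGTTTCcatttcgctg
TRIM16: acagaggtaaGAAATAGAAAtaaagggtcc
The match ended 16 bases before the start site in TRIM14, 17 in TRIM5 and 25 in TRIM44. It lay farther away in TRIM16 (70 bases), TRIM26 (184, with another overlapping match at 178) and TRIM2 (207). The ratios of these 6 genes lay on both sides of 1, with 3 below (TRIM14 0.421, TRIM44 0.542 and TRIM2 0.620) and 3 above (TRIM5 1.14, TRIM26 1.36 and TRIM16 1.57).

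Members with a RING but no C-terminal family domain had intervals below 1 for 3 of 4 measured members. In the class taken as without a RING, which held TRIM14, TRIM16, TRIM29 and TRIM44, intervals lay below 1 for 2 of 3 measured members. TRIM66 was placed with the PHD-bromodomain members. Over all measured genes the share below 1 was 30.1%. These classes are too small to read a class result from. TRIM31, a ligase of gut epithelium that can ubiquitinate the mitochondrial antiviral adaptor MAVS, lies at chromosome 6 (30102897 to 30113090) in the major histocompatibility region. It had 28 counts (7.92 CPM) in the GLE library and 194 (33.6 CPM) in the DMSO library, a ratio of 0.236 (0.153 to 0.352). This was the lowest ratio of the measured members, and TRIM31 was the one measured member with its whole interval below a 2-fold fall, as held for 2.86% of all genes.

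TRIM8, a regulator of cytokine and NF-kB signalling on chromosome 10, had 26 counts in the GLE library and 92 in the DMSO library, a ratio of 0.462 (0.287 to 0.720). TRIM56, an antiviral ligase, had 224 counts in the GLE library and 599 in the DMSO library, a ratio of 0.611 (0.522 to 0.714). TRIM52, which has an expanded RING, went the other way with 37 counts in the GLE library and 38 in the DMSO library. Its ratio of 1.59 had an interval that included 1 (0.984 to 2.57). The class had 4 measured members of 8, with 2 at least 2-fold lower and 0 higher, beside 10.5% and 9.54% of all genes.

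TRIM14, an adaptor on mitochondria in RIG-I signalling that has no RING, lies at chromosome 9 (98035797 to 98119222). It had 68 counts (19.2 CPM) in the GLE library and 264 (45.7 CPM) in the DMSO library, a ratio of 0.421 (0.318 to 0.551). Its span overlaps that of NANS on the opposite strand by 26346 bases, and NANS had 160 counts in the GLE library and 122 in the DMSO library. The strand setting of the counting is not given, so reads of the pair cannot be told apart where their exons overlap.

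TRIM44, which carries a zinc finger of the kind found in deubiquitinases, had 141 counts in the GLE library and 425 in the DMSO library, a ratio of 0.542 (0.445 to 0.657). TRIM16, a RING-less protein linked to the clearance of damaged lysosomes, had 25 counts in the GLE library and 26 in the DMSO library, and its ratio of 1.57 had an interval from 0.870 to 2.83. TRIM16 shares much of its sequence with the pseudogene TRIM16L, which had 4 counts in the GLE library and 22 in the DMSO library, so both counts are uncertain. TRIM29 had 0 counts in both libraries.

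**Figure D2:**
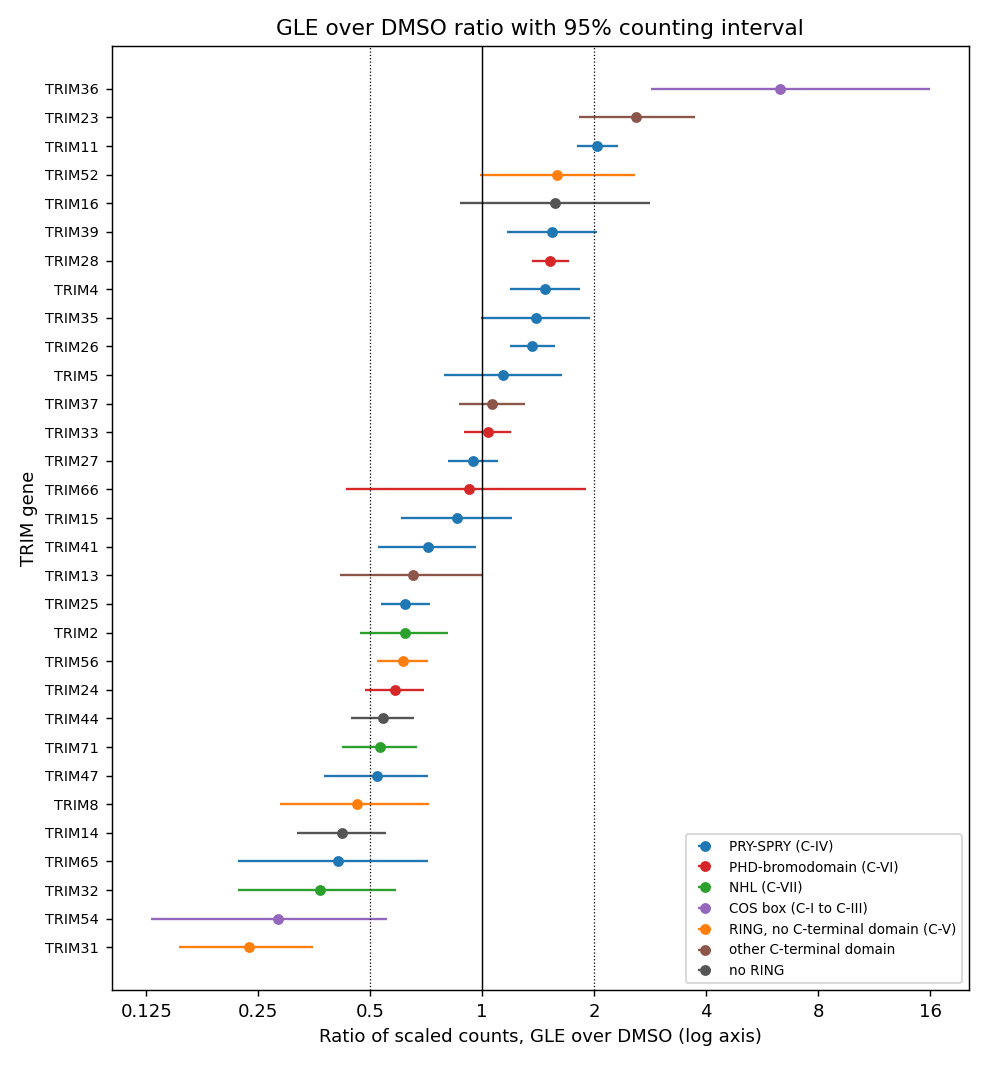
Ratio of scaled counts, GLE over DMSO, for the 31 measured TRIM genes on a log axis, with bars for the 95% counting interval and colours for the domain class. Dotted lines stand at 2-fold, and 15 intervals lie below 1, 7 above 1 and 9 include it.

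The 3 measured NHL members had intervals below 1 throughout, beside 30.1% of all measured genes. This class is also too small to read a class result from. The C-terminal NHL repeats of its members bind RNA or protein. TRIM32, a ligase mutated in a limb-girdle muscular dystrophy, had 22 counts (6.22 CPM) in the GLE library and 98 (16.96 CPM) in the DMSO library, a ratio of 0.367 (0.220 to 0.587). TRIM71, the LIN41 repressor of stem and embryonic cells and a target of let-7 microRNAs, had 101 counts (28.6 CPM) in the GLE library and 311 (53.8 CPM) in the DMSO library, a ratio of 0.531 (0.420 to 0.666). TRIM2, a ligase of neurofilament protein in neurons, had 77 counts in the GLE library and 203 in the DMSO library, a ratio of 0.620 (0.470 to 0.810). The fourth member, TRIM3, had 2 counts in the GLE library and 1 in the DMSO library. TRIM32 lies inside the span of ASTN2 on the opposite strand, which had 1 count in the GLE library and 17 in the DMSO library.

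The PHD-bromodomain members are nuclear co-regulators, and all 4 were measured with none past 2-fold. Over all genes 9.54% were higher and 10.5% lower by that much, so 4 genes are too few to read a class result from. TRIM28 (KAP1), the corepressor recruited by KRAB zinc finger proteins, lies at chromosome 19 (58544064 to 58550715). It had 600 counts (169.7 CPM) in the GLE library and 643 (111 CPM) in the DMSO library, a ratio of 1.52 (1.36 to 1.71). TRIM24, a co-regulator of nuclear receptors, was on the other side with 163 counts (46.1 CPM) in the GLE library and 457 (79.1 CPM) in the DMSO library, a ratio of 0.583 (0.484 to 0.698). TRIM33, a ligase of the TGF-beta mediator SMAD4, had 313 and 494 counts in GLE and DMSO cells, a ratio of 1.04 (0.896 to 1.20). The intervals of TRIM28, TRIM33 and TRIM24 did not overlap one another. TRIM66 had 13 counts in the GLE library and 23 in the DMSO library, a ratio of 0.924 (0.430 to 1.90), and its span overlaps the highly counted RPL27A by 440 bases.

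Of 13 measured partners of TRIM28, 7 had an interval below 1 and 1 above, beside 30.1% and 27.7% of all genes. Among genes with 100 or more counts those shares were 32.1% and 29.99%. Most partners had more counts than the median gene and so narrower intervals, and neither comparison is matched for depth. The median log2 ratio of these partners was -0.27, beside -0.04 over all measured genes. CBX5, heterochromatin protein HP1 alpha, had 548 counts in the GLE library and 1595 in the DMSO library, a ratio of 0.561 (0.509 to 0.619). MORC2, a silencing ATPase, had 115 counts in the GLE library and 380 in the DMSO library, a ratio of 0.495 (0.398 to 0.611). SETDB1, the histone methyltransferase brought in by TRIM28, had a ratio of 0.862 (0.720 to 1.03). MAGEA3, a cancer-testis protein that binds TRIM28, had 29 counts in the GLE library and 11 in the DMSO library, a ratio of 4.31 (2.09 to 9.56), with reads that its near-copy MAGEA6 can share. CBX3, another HP1 protein, and the deacetylase HDAC2 had ratios of 0.792 (0.759 to 0.827) and 0.780 (0.703 to 0.864).

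PRY-SPRY members, the largest class, lay on both sides of 1. Of 40 members, 12 were measured, with 1 higher and 1 lower by 2-fold or more, 4 intervals above 1 and 4 below, and a median log2 ratio of 0.06. These shares were near those over all genes, which were 9.54% and 10.5% past 2-fold and 27.7% and 30.1% with intervals above and below 1. TRIM11, a ligase implicated in the removal of misfolded proteins on chromosome 1 (228393676 to 228406835), had 544 counts (153.9 CPM) in the GLE library and 436 (75.5 CPM) in the DMSO library, a ratio of 2.04 (1.79 to 2.32). TRIM65, a ligase of the RNA sensor MDA5 on chromosome 17, had 16 counts in the GLE library and 64 in the DMSO library, a ratio of 0.409 (0.220 to 0.715). Its neighbour TRIM47, 955 bases away, had 53 counts in the GLE library and 166 in the DMSO library, a ratio of 0.522 (0.375 to 0.715).

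TRIM25, the ligase best known for activating RIG-I, had 238 counts (67.3 CPM) in the GLE library and 626 (108 CPM) in the DMSO library, a ratio of 0.621 (0.533 to 0.722). TRIM41, a ligase of protein kinase C, had a ratio of 0.713 (0.524 to 0.960). Higher values were found for TRIM26, a regulator of the interferon factor IRF3, which had 370 counts (104.6 CPM) in the GLE library and 443 (76.7 CPM) in the DMSO library. Its ratio was 1.36 (1.19 to 1.57). TRIM39, a stabiliser of the apoptosis modulator MOAP1, had a ratio of 1.54 (1.17 to 2.04), and TRIM4, another ligase reported to act on RIG-I, of 1.48 (1.19 to 1.83). TRIM39 overlaps HCG18, a long non-coding RNA on the opposite strand with 83 counts in the GLE library and 306 in the DMSO library. For TRIM27, which acts with MAGE proteins in endosomal sorting, 263 counts in the GLE library and 455 in the DMSO library gave 0.945 (0.808 to 1.10). TRIM5, the restriction factor of retroviral capsids, at 1.14 (0.787 to 1.64), TRIM35 at 1.39 (0.995 to 1.94) and TRIM15, a focal adhesion protein, at 0.857 (0.605 to 1.20) had intervals that included 1.

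Several interferon-linked PRY-SPRY genes were at or near the floor. TRIM22, an interferon-induced antiviral gene, and TRIM34 had 0 counts in both libraries. TRIM21, the cytosolic antibody receptor, had 2 counts in the GLE library and 6 in the DMSO library, and TRIM38 had 4 and 10 in that order. TRIM6 had 3 counts in each. TRIM6 and TRIM34 lie inside the span of TRIM5 on the opposite strand, so their counts are uncertain where exons overlap. Among the RIG-I and interferon genes looked up, 11 of 21 were measured, with 3 lower and 0 higher by 2-fold or more and a median log2 ratio of 0.14, beside 10.5% lower over all genes. Of all genes 9.54% were higher by 2-fold or more. Intervals lay above 1 for 3 and below 1 for 3 (27.3% each), near the 27.7% and 30.1% of all genes. The lower genes were MAVS, at 0.493 (0.416 to 0.580), the kinase gene IKBKE, at 0.383 (0.260 to 0.550), and STAT2, at 0.477 (0.330 to 0.676). The higher genes included the kinase gene TBK1, at 1.63 (1.13 to 2.35), and TRAF6, at 1.61 (1.10 to 2.34). Genes under the minimum lay on both sides. IRF7 had 20 counts in the GLE library and 3 in the DMSO library, while IFIT1 had 0 and 11 and IFIT2 had 0 and 8 in that order. RIGI, the sensor on which TRIM25 acts, had 47 counts in the GLE library and 53 in the DMSO library, a ratio of 1.45 (0.957 to 2.19). IRF3, a transcription factor of the same pathway, had a ratio of 1.31 (1.07 to 1.59).

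The COS box members bind microtubules, and 2 of 8 were measured, at opposite ends of the family. TRIM36, a microtubule-associated ligase on chromosome 5 (115124772 to 115180294), had 31 counts (8.77 CPM) in the GLE library and 8 (1.38 CPM) in the DMSO library. Its ratio of 6.33 (2.85 to 15.9) was the highest of the measured members, and it was the one measured member with the whole interval above a 2-fold rise, as held for 3.82% of all genes. TRIM54, the muscle protein MURF3, had 10 counts (2.83 CPM) in the GLE library and 58 (10.0 CPM) in the DMSO library, a ratio of 0.282 (0.128 to 0.556). Beside TRIM54, the 5 muscle markers summed to 12 counts in the GLE library and 31 in the DMSO library, with TTN at 9 and 29 of them in that order and with DES and MYH7 at 0 in both. The part of those markers in the TRIM54 value was not tested. TRIM46, an organiser of axonal microtubules, had 0 counts in the GLE library and 13 in the DMSO library, and the counting interval of its ratio ended at 0.536. The muscle ligases TRIM55 and TRIM63 (MURF1) and the testis gene TRIM42 had no counts, and the brain genes TRIM9 and TRIM67 had 0 in the GLE library and 6 and 1 in the DMSO library.

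Members with other C-terminal domains were few. TRIM23, which ends in an ARF GTPase domain and acts in antiviral autophagy, lies at chromosome 5 (65589690 to 65624333). It had 84 counts (23.8 CPM) in the GLE library and 53 (9.17 CPM) in the DMSO library, a ratio of 2.59 (1.81 to 3.72). TRIM37, the MATH-domain ligase mutated in Mulibrey nanism, had 164 counts in the GLE library and 252 in the DMSO library, a ratio of 1.06 (0.868 to 1.3). TRIM13, an endoplasmic reticulum membrane ligase, had 31 counts in the GLE library and 78 in the DMSO library, a ratio of 0.649 (0.414 to 0.996). TRIM45 had 7 and 21 counts in GLE and DMSO cells, and TRIM59 had 2 and 1.

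Among members under the minimum, TRIM68, a coactivator of the androgen receptor, had 23 counts in the GLE library and 5 in the DMSO library. The ratio of those counts was 7.52 (2.80 to 25.3), the largest of any member with counts in both libraries. TRIM10 had 7 counts in the GLE library and 22 in the DMSO library, and TRIM50 had 2 and 14. TRIM62 had 4 counts in each library. TRIM43, TRIM60 and TRIM69 had 1, 2 and 1 counts in the GLE library and 0 in the DMSO library, and TRIM51G had 0 in the GLE library and 2 in the DMSO library. Besides those already named, no counts were found for TRIM7, TRIM17, TRIM40, TRIM43B, TRIM48, TRIM49, TRIM49B, TRIM49C, TRIM51, TRIM58, TRIM61, TRIM64, TRIM64B, TRIM64C, TRIM72, TRIM73, TRIM74, TRIM75 and TRIM77. For each gene with no counts, the upper limit was 0.848 CPM in the GLE library and 0.519 CPM in the DMSO library. This limit holds only for reads that could be assigned to the gene. How reads shared by near-copies were counted is not given, so for members with near-copies 0 counts set no firm limit.

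**Figure D3:**
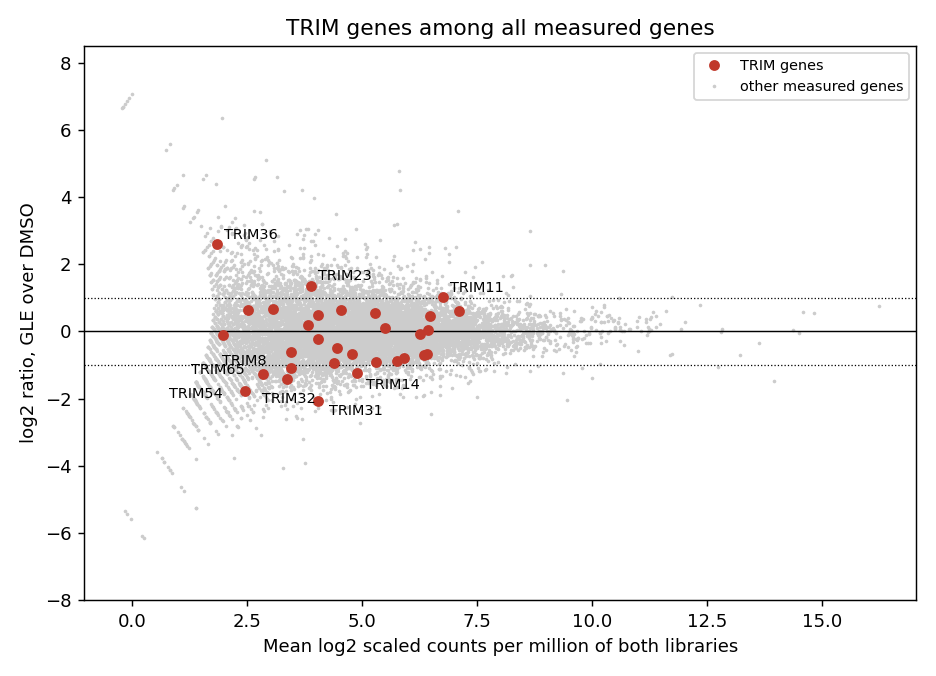
Log2 ratio of GLE over DMSO against the mean log2 scaled CPM for 31 TRIM genes (red) and the other measured genes (grey), with dotted lines at 2-fold. The 9 labelled TRIM genes lie past 2-fold, and TRIM36 and TRIM54 among them lie at low counts, where the grey cloud is wide.

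Over the family, the interval lay below 1 for 15 of 31 members (48.4%) and above 1 for 7 (22.6%), beside 30.1% below and 27.7% above over all measured genes. The depth behind the members was similar, with a median of 219 counts over both libraries for measured members and 244 for all measured genes. Restricted to 100 or more counts, 13 of 25 members (52.0%) lay below 1 and 6 above, beside 32.1% and 29.99% of the 8384 genes at that depth. The median log2 ratio of the measured members was -0.22, beside -0.04 over all genes. That median moved to -0.48 with a minimum of 100 counts, to -0.51 with a minimum of 10, and to -0.06 with a trend on transcript GC content removed. The median transcript GC content was 50.6% for measured members and 47.8% for all genes with a value, and over 5 bins of equal size from low to high GC the median log2 ratio of all genes was 0.12, 0.04, -0.04, -0.10 and -0.20.

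Genes named RNF are another set of mostly RING ligases. Of 57 measured RNF genes, 8 were higher and 6 lower by 2-fold or more, and the median log2 ratio was 0.18. That was 14.0% higher and 10.5% lower, beside 9.54% and 10.5% of all genes. The difference between the families was not tested, since genes are not replicates. The E2 enzymes that serve RING ligases, with UBA1 that charges them, had 0 of 14 members past 2-fold, 7 intervals above 1 and 1 below, and a median of 0.20, beside 27.7% of intervals above and 30.1% below over all genes. Most of these genes had more counts than the median gene, so the shares of intervals are not matched for depth. UBE2K had 1644 counts in the GLE library and 2517 in the DMSO library, a ratio of 1.07 (1.00 to 1.14). UBE2D3 had a ratio of 1.27 (1.14 to 1.41), and UBE2E1, the one with its interval below 1, of 0.662 (0.584 to 0.748).

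**Figure D4:**
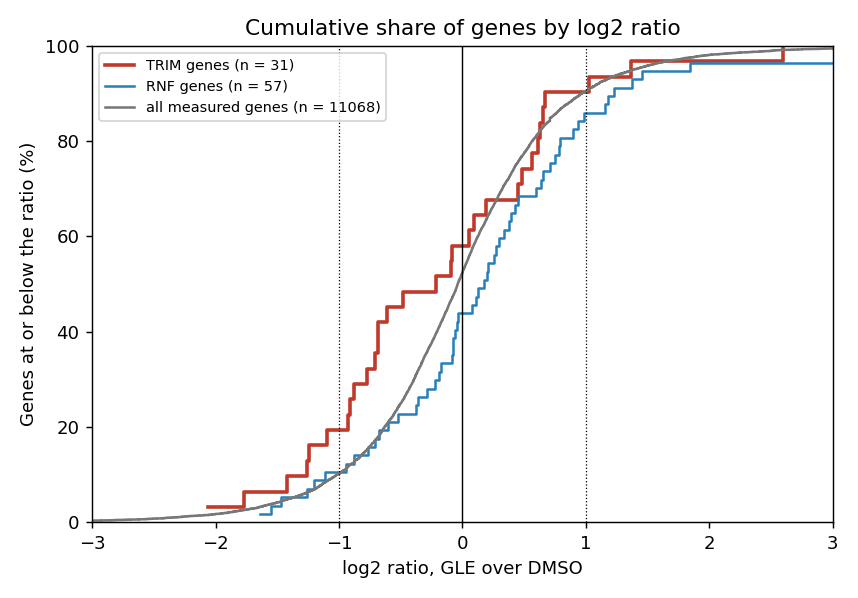
Cumulative percent of genes by log2 ratio of GLE over DMSO for 31 TRIM genes (red), 57 RNF genes (blue) and all 11068 measured genes (grey), with dotted lines at 2-fold. From the lowest TRIM value, that of TRIM31 at -2.06, up to 0 the TRIM curve lies above the grey curve. Medians were -0.22 for TRIM, 0.18 for RNF and -0.04 for all genes.

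Summed over all 73 members, the family took 4213 counts in the GLE library, 0.116% of the library (Clopper-Pearson 95% interval 0.112 to 0.119), and 7318 counts in the DMSO library, 0.130% (0.127 to 0.133). The ratio of the scaled sums was 0.941 (0.906 to 0.977). TRIM28 and TRIM11, the members with most counts in the GLE library, held 27.2% of the family's counts there and 14.7% in the DMSO library. Without this pair, chosen by its GLE counts after its values were seen, the other 71 members summed to a ratio of 0.804 (0.770 to 0.839). Both genes had ratios above that of the family, so leaving them out had to lower it, and this value is a description only.

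Relatives of the family without the symbol were few. PML, the organiser of nuclear bodies, had 22 counts in the GLE library and 38 in the DMSO library, a ratio of 0.946 (0.533 to 1.64). MID1, a microtubule-bound ligase of the same build, had a ratio of 0.724 (0.547 to 0.951). RNF207 had 10 counts in the GLE library and 39 in the DMSO library (0.419, 0.187 to 0.855), and the muscle gene CMYA5 had 29 and 16 (2.96, 1.56 to 5.84).

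Members that lie near one another in the genome shared a direction in some places and not in others. The closest measured pair, TRIM47 and TRIM65, both had intervals below 1. In the major histocompatibility region of chromosome 6, the measured members in order of position were TRIM31 at 0.236, TRIM15 at 0.857, TRIM26 at 1.36 and TRIM39 at 1.54, with TRIM15 and TRIM26 separated by 11761 bases. TRIM40, with no counts, and TRIM10, under the minimum, lie between TRIM31 and TRIM15. On chromosome 5, TRIM41 at 0.713 and TRIM52 at 1.59 are 13253 bases apart. All 5 members on chromosome 17 were measured, with 3 intervals below 1, those of TRIM25, TRIM47 and TRIM65, and 0 above. The shares were 48.4% below and 22.6% above over all measured members, and 30.1% and 27.7% over all genes. With 5 genes, no pattern by chromosome can be read.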

How the data were processed

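Messenger RNA was measured in 1 GLE and 1 DMSO library. The authors deposited raw read counts per gene symbol, without normalization. The submitters' processing notes name fastp, STAR, HTSeq and the build GRCh38, and any version, annotation or strand setting is not given in the sources used here. Per the labels, a 3′-end kit was used. Counts were scaled by the trimmed mean of M-values (TMM; factors 0.972 for GLE and 1.03 for DMSO) in edgeR 4.0.16 under R 4.3.3. Ratios of GLE over DMSO came from the scaled counts, for genes with at least 30 counts over both libraries. The 95% interval of a ratio is the exact Clopper-Pearson interval for the share of a gene's counts found in GLE, turned into a ratio with SciPy 1.17.1. Log2 ratios had 0.5 added to each count.

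With 1 library per group no test was made. Intervals and floors of 3 counts treat reads as independent and cover counting error only. Without molecular identifiers reads are no independent molecules, so the intervals can be too narrow even for that error. Biotypes and positions came from RefSeq (GRCh38.p14), which matched 42739 of 43424 symbols, and upstream sequences from the RefSeq promoter table, which held 58 of the 73 members. Motifs were searched on both strands in 250 bases. Transcript GC content came from the longest coding transcript of GENCODE release 29, and a lowess span of 0.3 gave the trends. The computation was tested on simulated data. Members, domain classes and lists were chosen with earlier results of these data known. All measured members were named, with full values for those past 2-fold, at the ends of the ranking or with most counts in a class, and from the other lists those past 2-fold or with most counts, some of which are not reported here. Alternatives were other scalings, among them DESeq2 1.42.0 size factors, other minimums of counts, 2 added before the logarithm, thinning of the DMSO library, a library size without abundant genes, and removal of trends with level and with GC content.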

Additional observations from a re-analysis of the deposited data

How the results depend on the processing

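Of 12 alternatives, 3 change only the minimum of counts and leave each ratio as it is. Under the other 9, 278 of 279 single-gene ratios stayed inside their own counting intervals and 0 crossed to the other side of 1 for a gene whose interval excluded 1. The exception was TRIM28, at 1.81 with the trend on GC content removed. Scaling by another library size moves every ratio by a shared small factor, while the median interval spans 1.83-fold from lower to upper bound. For those alternatives, staying inside was therefore likely beforehand. With no minimum of counts, 9 members were higher and 11 lower by 2-fold or more, 18.8% and 22.9% of the 48 with a count, beside 22.6% and 21.4% of all genes, so the larger share of lower members seen with the minimum of 30 was not seen there. Genes higher and lower by 2-fold or more numbered 1655 and 1840 with a minimum of 10 counts, 613 and 579 with 100, and 4224 and 3989 with none. As shares these were 12.5% and 13.9%, 7.31% and 6.91%, and 22.6% and 21.4%. The ratio of the family's summed counts was 0.889 scaled by total counts, 0.985 with the trend on level removed, 0.992 with the trend on GC content removed and 0.804 without TRIM28 and TRIM11. The GC alternative and the sum without that pair were chosen after seeing the data, and leaving the pair out had to lower the ratio. No paired analysis was possible because each condition has 1 library. Depth limits the members under 100 counts most, where the intervals of TRIM36 and TRIM16 span several-fold.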

Other observations

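Of the symbols next to the family that the choice of members left out, TRIM52-AS1, an antisense transcript beside TRIM52, had 31 counts in the GLE library and 26 in the DMSO library, a ratio of 1.95 (1.12 to 3.42). The readthrough TRIM39-RPP21 had 1 count in the GLE library and 3 in the DMSO library.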
